A study of Mus musculus with 9 samples.

Results

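Expression of 10 genes of the Bcl-2 family was examined in 9 RNA-seq libraries of CD45-Ter119-CD31+ bone marrow (BM) cells, sorted as endothelial cells (ECs). The genes were Bcl2, Bcl2l1, Bcl2l2, Mcl1, Bax, Bak1, Bcl2l11, Bbc3, Pmaip1 and Bid. They were taken by gene name from a count table of 46078 mouse genes, and all 10 were among the 15937 genes with enough counts to be tested. The libraries came from BM of normal wild type mice of strain B6, with no treatment named, and the ages of the mice were not given. Cells were sorted on Sca-1, a surface protein encoded by Ly6a that is high on arteriolar and low on sinusoidal endothelium of the BM, into a Sca-1+ fraction (n = 4, labels ending in 7, 13, 15 and 19) and a Sca-1- fraction (n = 5, labels ending in 8, 10, 14, 16 and 22). Labels 8, 15, 16 and 19 carry the tag wt, and label 7 carries no such tag. Labels 10, 13, 14 and 22 carry a tag that reads as a CD45 type instead. The comparison asked how the 2 fractions differ in steady state. Each library was made from 2 ng of total RNA with a full-length, poly(A)-primed cDNA kit.

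The Bcl-2 family sets the mitochondrial threshold for apoptosis. Survival proteins (BCL-2, BCL-XL, BCL-W and MCL-1) hold back the effectors BAX and BAK, which otherwise form pores in the outer mitochondrial membrane and release cytochrome c. BH3-only proteins, among them BIM, PUMA, NOXA and BID, are induced or activated by stress and neutralise the survival proteins or engage the effectors directly. In ECs the balance between these groups is known to decide whether a vessel persists or regresses, while BCL-XL is also known for setting the life span of platelets. Transcripts were measured here, not proteins, and much of the control of MCL-1, BIM and BID acts on the protein.

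Depth lay between 21581653 and 25959818 counts per library, so that 3 counts, taken as the floor, corresponded to 0.0996 to 0.209 CPM (counts scaled to library size, here after TMM scaling). Ly6a was at 874 to 1306 CPM in Sca-1+ and 0.240 to 1.49 CPM in Sca-1- libraries. The endothelial label held in the Sca-1+ libraries, whose 15 general endothelial markers summed to 13419 to 16860 CPM against 1105 to 2725 CPM in Sca-1- libraries, 14 of the 15 being higher. Over these markers the median log2 of Sca-1+ over Sca-1- was 4.50. In Sca-1- libraries the endothelial gene Cdh5 was at 2.44 to 13.1 CPM and the megakaryocyte gene Itga2b at 5539 to 23281 CPM. There the megakaryocyte markers summed to 29372 to 125708 CPM, far above the endothelial sum. The endothelial label was thus not borne out by the markers of the Sca-1- libraries, and the comparison is not simply one of 2 endothelial fractions. The Sca-1- libraries carried a strong megakaryocyte signal: 16 of 16 megakaryocyte markers were lower in Sca-1+, and together they took 3.41% to 7.29% of all counts in Sca-1- libraries against 0.00626% to 0.0128% in Sca-1+ libraries. Of 10 erythroid markers 7, and of 10 leukocyte markers 8, were also lower in Sca-1+, whereas 4 of 6 smooth muscle and pericyte markers were higher. Of 8 neutrophil markers 1 was lower and 7 did not pass. Only 4 of the erythroid markers had no overlap between the fractions. These counts are at an adjusted p under 0.05 by edgeR, where 21.4% of all genes tested were lower and 23.3% higher. Sca-1- libraries 8 and 10 stood apart, with the highest megakaryocyte sums (100265 and 125708 CPM) and the lowest TMM factors (0.671 and 0.581, against 0.988 to 1.22 in the other libraries). Sca-1+ library 19 held 760 CPM of neutrophil markers and 46.4 CPM of B and plasma cell markers, against at most 56.3 and 1.84 CPM in the other Sca-1+ libraries. The part of these other cells in the values below was not tested, and in bulk RNA fewer cells of a type cannot be told apart from less RNA per cell. The labels do not tie every library to an animal of its own, so p-values measure the spread between these libraries. Running numbers in the labels also separate the fractions completely, and a preparation or sequencing run that follows them cannot be told apart from Sca-1.

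In brief, 7 of the 10 members differed between the fractions at an adjusted p under 0.05. Bcl2, Mcl1, Bcl2l11 and Pmaip1 were higher and Bcl2l1, Bbc3 and Bid lower in Sca-1+, while Bcl2l2, Bax and Bak1 did not pass the test. The survival group and the BH3-only group each held members that moved in opposite directions. In the survival group the upward side was less firm: Bcl2 lost its call in 8 and Mcl1 in 13 of 19 alternative analyses. The fractions differed widely, with 44.8% of all genes tested called, 23.3% higher and 21.4% lower in Sca-1+. The median log2 fold change (log2 of Sca-1+ over Sca-1-) was 0.67 over the 10 members and 0.07 over all genes tested. CPM did not overlap between the fractions for 6 of the 10 members, against 43.6% of all genes tested. With 10 genes and such a background, nothing particular to the family is read from these shares.

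**Figure D1:**
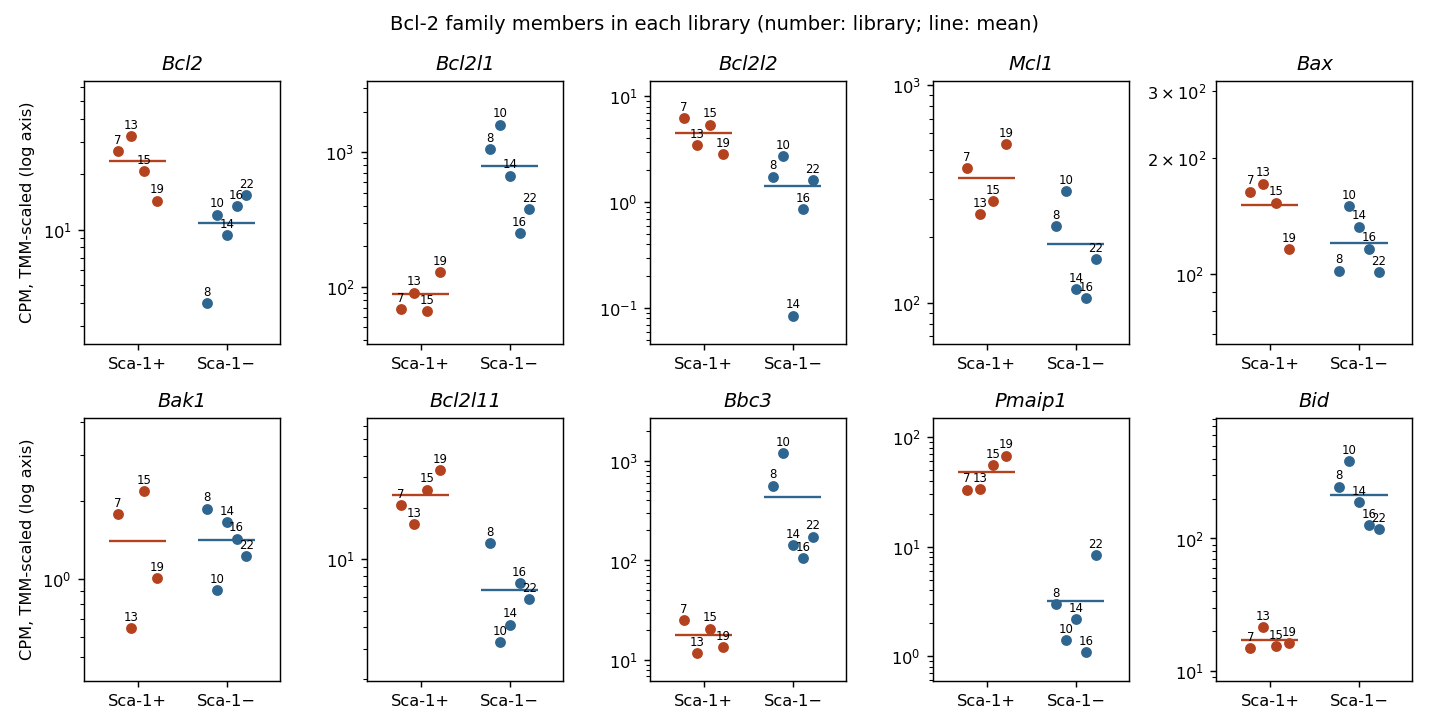
CPM of each member (log axis, scaled separately for each gene) in the 4 Sca-1+ and 5 Sca-1- libraries, with the library number at each point and a line at the mean. Bcl2l1, Bbc3 and Bid lie lower and Bcl2l2, Bcl2l11 and Pmaip1 higher in every Sca-1+ library, and library 10 is the highest Sca-1- library for Bcl2l1, Bbc3 and Bid.

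Of the survival genes, Bcl2l1, which encodes BCL-XL, showed the largest difference. Its level was 68.3, 90.4, 65.8 and 128 CPM in Sca-1+ libraries 7, 13, 15 and 19, and 1056, 1603, 669, 252 and 379 CPM in Sca-1- libraries 8, 10, 14, 16 and 22. All Sca-1+ values lay below all Sca-1- values, and the Sca-1- values themselves ranged widely. The means were 88.1 ± 28.8 (SD, n = 4) and 792 ± 549 CPM (SD, n = 5), an 8.98-fold higher mean in Sca-1-, with a log2 fold change of -3.17 (SE 0.56, adjusted p = 0.0013). Within Sca-1-, the order of Bcl2l1 from library 16 through 22, 14 and 8 to 10 was also the order of the summed megakaryocyte markers (29372, 41573, 59756, 100265 and 125708 CPM). Bbc3 and Bid, also lower in Sca-1+, did not keep this order among libraries 14, 16 and 22. A link between Bcl2l1 and these markers was not tested. Without libraries 8 and 10 the mean of the other 3 Sca-1- libraries was 433 CPM, 4.92-fold above Sca-1+, and the log2 fold change was -2.30 (adjusted p = 0.0017). Bcl2l1 (ENSMUSG00000007659) lies at chr2:152780668-152831728 on the minus strand of GRCm38 and shares no exon sequence with another gene.

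Mcl1, which encodes the short-lived survival protein MCL-1, went the other way by a smaller margin. Sca-1+ libraries 7, 13, 15 and 19 held 414, 256, 292 and 534 CPM, and Sca-1- libraries 8, 10, 14, 16 and 22 held 224, 325, 115, 105 and 158 CPM. Library 10, at 325 CPM, exceeded Sca-1+ libraries 13 and 15, so the fractions overlapped. The log2 fold change was 1.01 (SE 0.37, adjusted p = 0.049). The call was marginal: Mcl1 lost it in 13 of 19 alternative analyses, among them DESeq2 (adjusted p = 0.078), and the adjusted p ranged from 0.0011 to 0.17. Without libraries 8 and 10 the log2 fold change was 1.56 (adjusted p = 0.0038). Mcl1 (ENSMUSG00000038612) lies at chr3:95658788-95663176 on the plus strand, with no shared exon sequence.

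Bcl2, the founding member of the family, was expressed at low levels. It reached 26.8, 32.2, 20.8 and 14.4 CPM in Sca-1+ libraries 7, 13, 15 and 19, and 3.96, 12.1, 9.33, 13.4 and 15.4 CPM in Sca-1- libraries 8, 10, 14, 16 and 22. The fractions overlapped only in Sca-1+ library 19, which lay below Sca-1- library 22. The log2 fold change was 1.12 (SE 0.39, adjusted p = 0.038), and 8 of 19 alternatives lost the call, including removal of libraries 8 and 10 (0.88, adjusted p = 0.06). An antisense gene, D630008O14Rik, covers 6.09% of the exon sequence of Bcl2 (chr1:106538178-106714274), which makes its count uncertain where strand was not used in counting.

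Bcl2l2, which encodes BCL-W, was the least expressed survival gene. Levels were 6.24, 3.47, 5.39 and 2.87 CPM in Sca-1+ libraries 7, 13, 15 and 19 and 1.74, 2.72, 0.0848, 0.863 and 1.63 CPM in Sca-1- libraries 8, 10, 14, 16 and 22. Every Sca-1+ value lay above every Sca-1- value, although library 14, with 2 counts, was at the floor. The log2 fold change of 1.68 (SE 0.72) did not pass the test (adjusted p = 0.081), and did so without TMM scaling and with limma voom (adjusted p = 0.025 in each). Gm20521 on the same strand shares 13.3% of the exon sequence.

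Because Bcl2l1 was lower in Sca-1+ while Mcl1 and Bcl2, with less firm calls, were higher, proportions within a library were compared. These do not depend on how libraries are scaled. Levels were divided by the length of all exons of each gene and expressed as a percentage of the sum over Bcl2, Bcl2l1, Bcl2l2 and Mcl1. Mcl1 made up 86.3%, 75.7%, 82.7% and 83.8% of the sum in Sca-1+ libraries 7, 13, 15 and 19, and 22.1%, 21.3%, 18.6%, 35.1% and 35.3% in Sca-1- libraries 8, 10, 14, 16 and 22. Bcl2l1 made up 10.6%, 19.9%, 13.9% and 14.99% in the same Sca-1+ libraries and 77.6%, 78.3%, 80.8%, 63.0% and 63.1% in the Sca-1- libraries. The leading survival transcript was thus Mcl1 in each of the 4 Sca-1+ libraries and Bcl2l1 in each of the 5 Sca-1- libraries. Mean shares of Mcl1 were 82.1% ± 4.53 (SD, n = 4) and 26.5% ± 8.07 (SD, n = 5), and those of Bcl2l1 14.9% ± 3.85 and 72.6% ± 8.76. Bcl2 and Bcl2l2 contributed at most 3.56% and 1.17% in any library. With the length of the longest transcript in place of all exons, Mcl1 shares became 73.2% and 17.1% and Bcl2l1 shares 23.5% and 82.2%. Among the 3 Sca-1- libraries other than 8 and 10, the mean Bcl2l1 share was 69.0%.

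**Figure D2:**
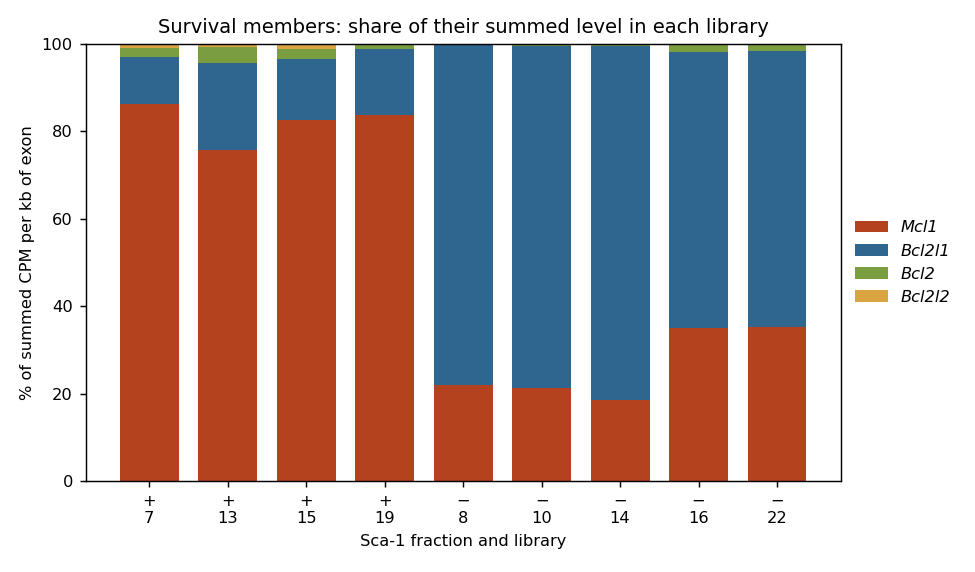
Share of each survival gene in the summed CPM per kb of exon of Bcl2, Bcl2l1, Bcl2l2 and Mcl1, in percent, for each library (+ for Sca-1+, − for Sca-1-, with the library number). Mcl1 fills 75.7% to 86.3% of the bar in Sca-1+ libraries and 18.6% to 35.3% in Sca-1- libraries.

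The effectors differed little. Bax was at 164, 172, 153 and 116 CPM in Sca-1+ libraries 7, 13, 15 and 19 and at 102, 150, 133, 117 and 101 CPM in Sca-1- libraries 8, 10, 14, 16 and 22. The fractions overlapped, with Sca-1+ library 19 below 3 of the Sca-1- libraries, and the log2 fold change of 0.33 (SE 0.20) did not pass the test (adjusted p = 0.21). Bax passed in 1 of 19 alternatives, edgeR without TMM scaling (0.74, adjusted p = 0.045). Bak1 was near the limit of what could be measured, between 0.647 and 2.18 CPM in Sca-1+ and between 0.908 and 1.86 CPM in Sca-1-, on 13 to 63 counts per library. Its log2 fold change was -0.02 (SE 0.49, adjusted p = 0.98), and the sign turned in 5 of 19 alternatives, library size without TMM scaling included (0.36). Per kb of exon, Bax (96.0 ± 15.7 and 76.5 ± 13.4 CPM per kb, SD, in Sca-1+ and Sca-1-) exceeded Bak1 (0.582 ± 0.290 and 0.588 ± 0.154) in every library. Both counts carry an uncertainty from neighbours, since 12.2% of Bax exon sequence lies in Gm45808 on the same strand and 25.5% of that of Bak1 lies in Ggnbp1 on the opposite strand.

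All 4 BH3-only members were called, 2 in each direction, with no overlap between the fractions (44.8% and 43.6% of all genes). Bbc3, which encodes PUMA, a p53-inducible protein that binds all survival members, had the largest fold change of the 10. It stood at 25.1, 11.7, 20.7 and 13.5 CPM in Sca-1+ libraries 7, 13, 15 and 19 and at 565, 1194, 144, 105 and 173 CPM in Sca-1- libraries 8, 10, 14, 16 and 22. Libraries 8 and 10 were more than 3 times above the other Sca-1- libraries, and the lowest Sca-1- value still exceeded the highest Sca-1+ value. The log2 fold change was -4.62 (SE 0.82, adjusted p = 0.0013), with a 24.6-fold higher mean in Sca-1-. Without libraries 8 and 10 the mean ratio was 7.93-fold and the log2 fold change -2.997 (adjusted p = 0.00024), so the direction was kept and the size rested on these 2 libraries. Removal of library 10 alone gave -3.88 (adjusted p = 0.00091). Bbc3 (ENSMUSG00000002083) lies at chr7:16308393-16318205 on the plus strand.

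Bid, whose protein is cleaved by caspase-8 and thereby links death receptors to mitochondria, showed the same direction with less spread. Sca-1+ libraries 7, 13, 15 and 19 held 14.9, 21.6, 15.5 and 16.3 CPM, and Sca-1- libraries 8, 10, 14, 16 and 22 held 245, 383, 188, 126 and 118 CPM. The Sca-1+ values were tightly grouped and each was far below the lowest Sca-1- value. The log2 fold change was -3.63 (SE 0.40, adjusted p = 9.1e-05), and without libraries 8 and 10 it was -3.07 (adjusted p = 5.8e-05). The 3′ ends of Bid (chr6:120891930-120916853) and Bcl2l13 on the opposite strand overlap over 17.7% of Bid exon sequence. The overlap covers 6.91% of Bcl2l13 exon sequence. Mean levels of Bcl2l13 and Bid were 2.07 and 4.81 CPM per kb of exon in Sca-1+ and 2.97 and 59.7 in Sca-1- libraries. Any shared reads would thus weigh more on the Bid count in Sca-1+.

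Pmaip1, which encodes NOXA, a BH3-only protein that binds MCL-1 by preference, rose most in Sca-1+. Its level was 33.2, 33.5, 55.7 and 67.9 CPM in Sca-1+ libraries 7, 13, 15 and 19, and 3.004, 1.40, 2.16, 1.10 and 8.43 CPM in Sca-1- libraries 8, 10, 14, 16 and 22. Only Sca-1- library 22 exceeded 5 CPM, and it remained well below every Sca-1+ library. Pmaip1 differed by a log2 fold change of 3.88 (SE 0.60, adjusted p = 0.00059), a 14.8-fold higher mean in Sca-1+. Without libraries 8 and 10 it was 3.60 (adjusted p = 0.0054), and without library 22 it was 4.63 (adjusted p = 0.00011), a 24.8-fold higher mean.

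Bcl2l11, which encodes BIM, a ligand of every survival protein and a target of FOXO factors, was also higher in Sca-1+ (ENSMUSG00000027381, chr2:128126038-128162547). It was at 20.7, 16.1, 25.5 and 33.1 CPM in Sca-1+ libraries 7, 13, 15 and 19 and at 12.4, 3.28, 4.16, 7.24 and 5.86 CPM in Sca-1- libraries 8, 10, 14, 16 and 22. The fractions came closest at Sca-1- library 8 and Sca-1+ library 13 and did not overlap. This was a log2 fold change of 1.85 (SE 0.41, adjusted p = 0.0042), and it was 2.04 without libraries 8 and 10 (adjusted p = 0.0019). The call was lost in 2 of 19 alternatives, both of which used the 6 libraries with consecutive label numbers (1.498, adjusted p = 0.052, with the pairs as a block and 1.38, adjusted p = 0.057, without).

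**Figure D3:**
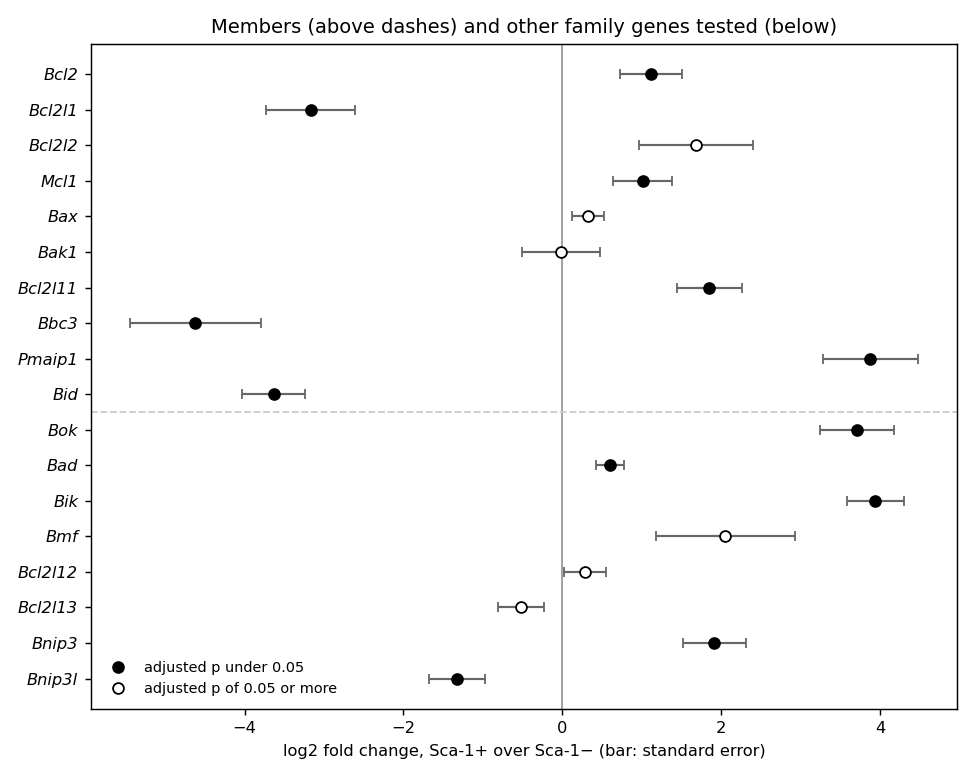
Log2 fold change (Sca-1+ over Sca-1-) with its standard error for the 10 members, above the dashed line, and the 8 other family genes that could be tested, below it; filled points have an adjusted p under 0.05. The called members extend from -4.62 (Bbc3) to 3.88 (Pmaip1).

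**Figure D4:**
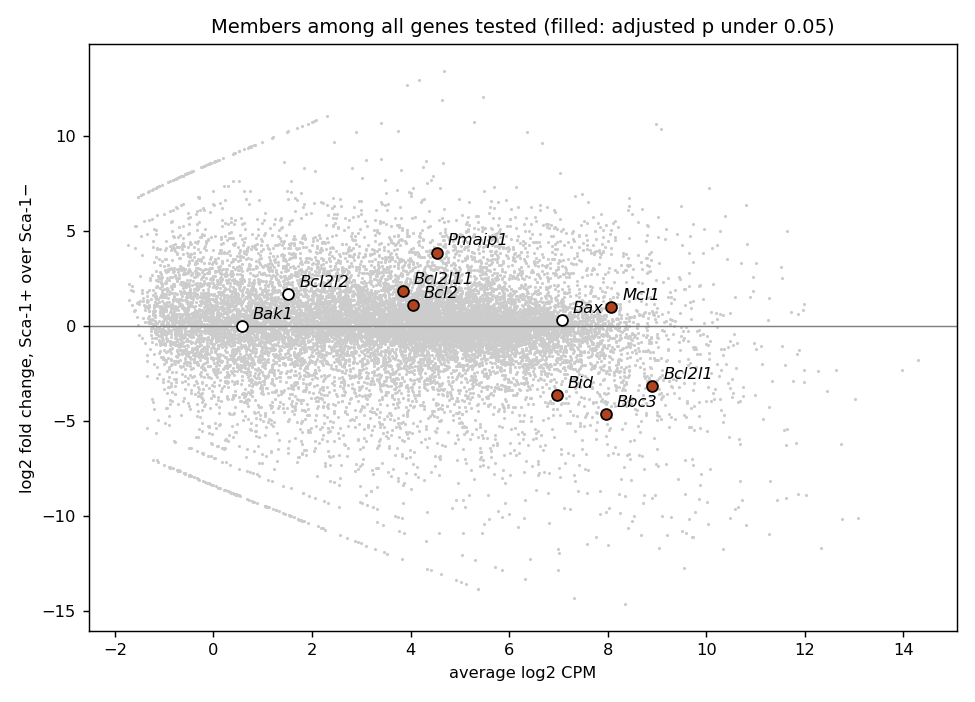
Log2 fold change (Sca-1+ over Sca-1-) against average log2 CPM for the 15937 genes tested (grey) with the 10 members marked, filled where the adjusted p was under 0.05. The members lie inside the cloud of all genes, of which 44.8% were called.

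Ratios between members within a library restated the levels above without any scaling between libraries. The log2 ratio of Mcl1 to Bcl2l1, per kb of exon, was 2.50 ± 0.45 (SD) in Sca-1+ and -1.497 ± 0.61 in Sca-1-, with no overlap. That of Pmaip1 to Bbc3 was 1.06 ± 0.79 and -7.22 ± 1.98, so the NOXA transcript was above the PUMA transcript in Sca-1+ libraries 13, 15 and 19 and far below it in each Sca-1- library. In Sca-1+ library 7 the transcripts were about equal (0.038, and -0.19 with the length of the longest transcript). Bcl2l11 to Bbc3 likewise did not overlap (-1.47 ± 0.65 and -7.49 ± 1.75). In contrast, the ratios of Bbc3 to Bcl2l1 (-1.22 ± 0.90 and -0.08 ± 0.66) and of Bid to Bcl2l1 (-1.96 ± 0.44 and -1.37 ± 0.45) overlapped. These genes were lower together. Pmaip1 and Mcl1 were higher together, yet their ratio did not overlap (-2.66 ± 0.51 and -5.80 ± 1.32). These ratios are descriptions and were not tested.

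**Figure D5:**
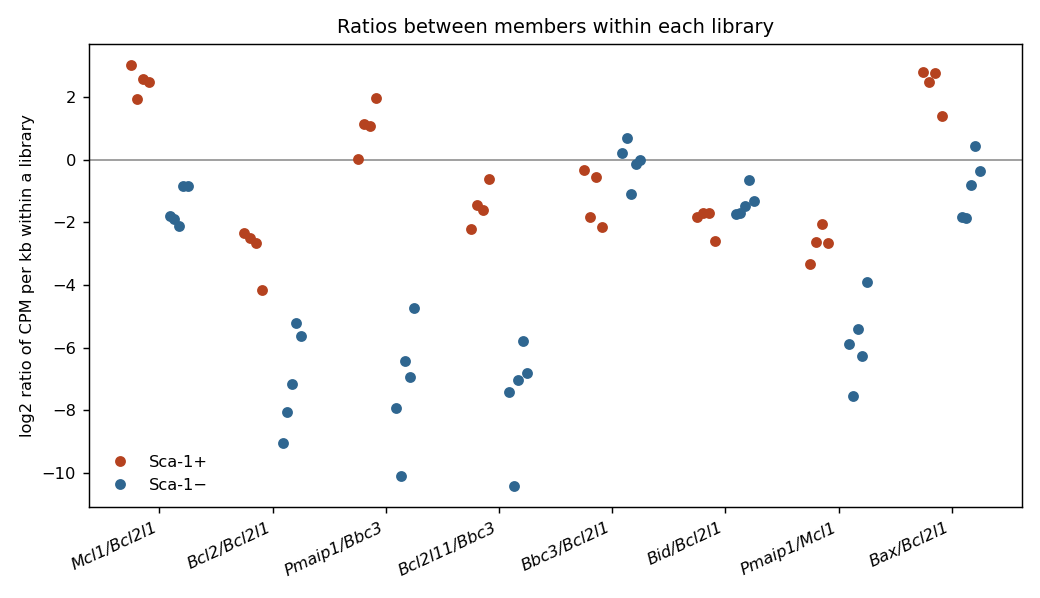
Log2 ratio of CPM per kb of exon between pairs of members, one point per library. Mcl1/Bcl2l1 runs from 1.93 to 3.02 in Sca-1+ and from -2.12 to -0.84 in Sca-1-, whereas Bbc3/Bcl2l1 and Bid/Bcl2l1 overlap.

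Ordered by mean level per kb of exon, the Sca-1+ libraries expressed Mcl1 (109 CPM per kb) and Bax (96.0) most, then Bcl2l1 (19.2), Pmaip1 (17.4), Bbc3 (8.35), Bid (4.81), Bcl2l11 (2.97), Bcl2 (2.57), Bcl2l2 (1.01) and Bak1 (0.582). The ranges of Mcl1 and Bax, of Bcl2l1 and Pmaip1, of Bbc3 and Bid, of Bcl2l11 and Bcl2, and of Bcl2l2 and Bak1 overlapped, so these neighbours were not separated. In Sca-1- libraries the order was Bbc3 (205), Bcl2l1 (173), Bax (76.5), Bid (59.7), Mcl1 (54.3), then, far lower, Bcl2 and Pmaip1 (1.18 each), Bcl2l11 (0.821), Bak1 (0.588) and Bcl2l2 (0.316). Each neighbouring pair there overlapped in range, apart from the step between Mcl1 and Bcl2. The first rank of Bbc3 rested on libraries 8 and 10: in the other 3 Sca-1- libraries it averaged 66.2, below Bcl2l1 (94.5) and Bax (74.1). Summed per kb, the 4 BH3-only members reached 25.8 to 39.9 in Sca-1+ and 86.2 to 671 in Sca-1- libraries, without overlap. Libraries 8 and 10 held the highest sums (338 and 671). The BH3-only genes Bad and Bik, outside the 10, were not in this sum and had higher means in Sca-1+. Per kb they were at 30.1 and 19.9 (Bad) and at 20.7 and 1.34 (Bik) in Sca-1+ and Sca-1-. The sum of the survival members overlapped (98.9 to 186 and 87.2 to 447), as did that of the effectors Bax and Bak1 (74.0 to 109 and 64.7 to 95.8). Bok, an effector-like gene outside the 10, was not in this sum. It did not overlap (53.7 to 114 CPM per kb in Sca-1+ and 1.59 to 9.24 in Sca-1-).

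Promoter sequences are shown for the members that were called higher in Sca-1+ and whose window held the motif CCGGAA, the core that ETS factors recognise. Each is the 250 bases before a RefSeq transcript start on GRCm38.p6 (Mcl1 at chr3:95658471-95658720, Bcl2l11 at chr2:128125788-128126037, both on the plus strand), written 5′ to 3′ with CCGGAA or its reverse complement in capitals.
Mcl1: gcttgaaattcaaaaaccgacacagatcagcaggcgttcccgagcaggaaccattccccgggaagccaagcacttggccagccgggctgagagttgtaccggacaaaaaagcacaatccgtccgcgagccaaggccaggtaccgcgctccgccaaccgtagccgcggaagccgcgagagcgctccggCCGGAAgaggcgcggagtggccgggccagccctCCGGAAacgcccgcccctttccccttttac
Bcl2l11: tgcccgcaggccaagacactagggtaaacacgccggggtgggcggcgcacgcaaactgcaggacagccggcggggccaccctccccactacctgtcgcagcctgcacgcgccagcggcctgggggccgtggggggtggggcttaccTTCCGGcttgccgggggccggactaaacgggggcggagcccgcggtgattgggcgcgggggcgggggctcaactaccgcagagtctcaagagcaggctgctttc
The Mcl1 window held the motif 63 and 30 bases before the start and the Bcl2l11 window held it 104 bases before the start, on the minus strand. RefSeq windows were found for 9 of the 10 members, 14 windows in all, of which 3 held CCGGAA on either strand, the third being Bid, which was lower in Sca-1+. The motif was present in 12.0% of 32851 mouse promoters of the same length. The motif AGATAA, bound by factors of the GATA group, was present in 1 of the 14 windows, at an alternative start of Bcl2l1, and in 9.99% of all promoters. The motifs overlap no letters with each other in these windows, and a match is a description of the sequence.

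Of 15 other genes of the family, 8 could be tested, of which 4 were higher and 1 lower in Sca-1+ (23.3% and 21.4% of all genes). Bik, a BH3-only gene, was at 20.6 to 38.1 CPM in Sca-1+ and 1.12 to 3.18 CPM in Sca-1- libraries (log2 fold change 3.94, SE 0.36, adjusted p = 3.8e-05). Bok, an effector-like gene, was at 98.8 to 210 CPM and 2.93 to 17 CPM (3.71, SE 0.46, adjusted p = 0.00018). Both were thus more than 10-fold higher in Sca-1+, on means of 32.9 and 2.13 CPM for Bik and 169 and 12.9 CPM for Bok. Bnip3, a mitophagy receptor induced by hypoxia, was higher (1.92, adjusted p = 0.0029), and its relative Bnip3l was lower (-1.32, adjusted p = 0.011, and -0.72, adjusted p = 0.0082, without libraries 8 and 10). Bad, a BH3-only gene controlled by phosphorylation, was higher by a small step (0.60, adjusted p = 0.021), a call lost in 5 of 19 alternatives. Bmf (2.05, adjusted p = 0.081), Bcl2l12 (0.29, adjusted p = 0.41) and Bcl2l13 (-0.52, adjusted p = 0.17) did not pass. Bcl2a1a, Bcl2a1b and Bcl2a1d, near-identical genes whose reads may be shared, had at most 5 counts in any library, Bcl2l15 at most 9, Hrk at most 10 and Bcl2l14 at most 47, and Bcl2l10 had 0 counts throughout, which allows up to 0.209 CPM in the library with the highest floor. Antisense or opposite-strand exons cover 20.5% of Bad and 22.3% of Bnip3.

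Downstream of the family, 15 genes of the mitochondrial step and the caspases were tested, with 1 higher and 4 lower in Sca-1+, against 23.3% and 21.4% of all genes. Vdac1, which encodes a channel of the outer mitochondrial membrane, was at 33.6 to 40.6 CPM in Sca-1+ and 99.2 to 144 CPM in Sca-1- libraries (log2 fold change -1.63, adjusted p = 0.0001). Of 7 inhibitors of apoptosis tested, 2 were higher, 2 lower and 3 not called, shares near those of all genes. Birc3 (2.04, adjusted p = 0.00011) and Xiap (1.42, adjusted p = 0.0026) were higher. Birc2, whose product ubiquitinates RIPK1 in TNF signalling, was at 443 to 3771 CPM in Sca-1- and 42.1 to 71.2 CPM in Sca-1+ libraries (-4.74, adjusted p = 0.00047). Without libraries 8 and 10 its log2 fold change was -3.54 (adjusted p = 0.00018). Birc5, a mitotic gene, was also lower (-2.70, adjusted p = 0.00057).

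Upstream, death receptors and their adaptors gave 6 higher, 1 lower and 4 not called of 11, beside 23.3% higher and 21.4% lower over all genes. Tnfrsf1a, the main TNF receptor, was at 230 to 285 CPM in Sca-1+ and 7.68 to 28.5 CPM in Sca-1- libraries (log2 fold change 4.05, adjusted p = 4.2e-05). Tnfrsf1b was higher as well (2.58, adjusted p = 0.00048), whereas the adaptor Fadd was lower (-1.42, adjusted p = 0.0036). Of 16 genes known to regulate family members, 5 were higher, 5 lower and 6 not called, against the same background. Foxo1, a factor known to induce Bcl2l11, was higher (2.12, adjusted p = 0.00086). Foxo3, another FOXO gene known to induce Bcl2l11, was lower (-2.10, adjusted p = 0.01) and was named after its values were seen. It was at 6.82 to 13.7 CPM in Sca-1+ libraries. In Sca-1- libraries 8, 10, 14, 16 and 22 it was at 72.0, 92.9, 24.1, 21.8 and 17.8 CPM, so much of the difference came from libraries 8 and 10. Dynll1, which encodes a light chain that tethers BIM, was higher (1.51, adjusted p = 0.00034). Stat5b, a factor known to induce Bcl2l1, was lower (-3.07, adjusted p = 0.0014), and so was Ddit3, the CHOP gene of the unfolded protein response (-3.02, adjusted p = 0.0026). Without libraries 8 and 10 these were -1.98 (adjusted p = 0.00018) for Stat5b and -1.91 (adjusted p = 0.0037) for Ddit3.

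Across the 9 libraries and 9864 genes at a sufficient level, the genes whose log2 CPM followed Pmaip1 most closely were Arhgap29 (Pearson r = 0.992), Erc1 (0.988) and Fbln2 (0.988). Among those closest to Bbc3 were Jarid2 (0.996) and Smox (0.996). A coefficient of 0.95 or more was reached by 159 genes for Pmaip1 and by 663 genes for Bbc3. These are descriptions without a p-value, since the 9 points share the sort into 2 fractions and the cell content described above.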

How the data were processed

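RNA of sorted cells was sequenced in 4 Sca-1+ and 5 Sca-1- libraries, grouped by the deposited labels. The authors deposited 1 table of read counts per gene for all 9 libraries, whole numbers without normalization. The submitters' processing notes name STAR, featureCounts and mm10; versions, annotation and use of strand are not given in the sources used here. Counts include PCR copies, so the floors reflect counting error alone.

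Differences were tested with edgeR 4.0.16 (R 4.3.3): filterByExpr at its defaults (minimum count 10, minimum total 15), TMM normalization, and the two-sided quasi-likelihood F-test (glmQLFit, glmQLFTest) with p-values adjusted by the Benjamini-Hochberg method across the 15937 genes that passed the filter, called under 0.05. Standard errors were taken from the F statistic. Log2 CPM used a prior count of 2. Within fractions no pair of libraries agreed within sampling noise. The fit was also run on counts simulated from its own means and dispersions, which does not test its assumptions. DESeq2 1.42.0, limma 3.58.1 (voom), other scalings, other filters and the removal of libraries were alternatives, and the removal of Sca-1- libraries 8 and 10 together was chosen after the data were seen. Positions, exon lengths and shared exons were read from the GENCODE M21 annotation (GRCm38), which lists 45229 of the 46078 identifiers. Promoter sequences came from RefSeq on GRCm38.p6, and the motifs were chosen after the sequences were seen.

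The members and lists were chosen with earlier results of these data known. Named genes were the members, the other family genes, up to 2 genes at either end of each other list (adjusted p under 0.05, average log2 CPM of at least 3, no overlap between fractions), and the 3 genes most correlated with the members at the 2 extremes. Some genes that this rule names are not reported here. Markers of cell types came from fixed lists. Python 3.11.15 and matplotlib 3.10.9 were used for the plots.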

Additional observations from a re-analysis of the deposited data

Results flagged for a closer look

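Of 50 groups of 4 or 5 libraries examined with Dixon's test for a single distant value, 4 held one, where chance gives about 1 in 20. Bok was at a log2 CPM of 1.59 in Sca-1- library 10, against 3.79 to 4.09 in the other 4 Sca-1- libraries. Sca-1+ library 19 was the distant library in the other 3 cases. There Bad was at a log2 CPM of 5.89 (6.34 to 6.41 in the other 3), Bik was at 4.37 (5.14 to 5.26), and the log2 of the summed CPM of B and plasma cell markers was 5.54 (0.54 to 0.88). Without library 10 Bok remained higher in Sca-1+ (log2 fold change 3.40, adjusted p = 3.6e-05 by edgeR), and without library 19 so did Bad (0.71, adjusted p = 0.013) and Bik (4.11, adjusted p = 0.00012). Whether the cells behind the B and plasma cell markers bear on Bad and Bik was not tested.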

How the results depend on the processing

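Bcl2l1, Bbc3, Bid and Pmaip1 kept direction and call in all 19 alternatives, and 21 of 32 named genes did so. Members called lower numbered 3 throughout. Members called higher numbered 4 by edgeR with TMM, 3 with DESeq2, 5 with voom and 6 with library size only. Leaving out 1 library gave 2 to 3, with 2 without Sca-1+ library 7 or 15 or Sca-1- library 8 or 14. In all 4 cases Bcl2 and Mcl1 lost the call. Library size only moved the median log2 fold change of all genes from 0.07 to 0.43 and the calls from 3721 higher and 3416 lower to 4158 and 2431, and members are read relative to that shift. Leaving out 1 library gave 5957 to 6969 genes called, and leaving out both 8 and 10 gave 7546.

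Consecutive label numbers (7 and 8, 13 and 14, 15 and 16) were tried as a replicate block. Deviations of these 3 pairs correlated at r = 0.147, 0.148 and 0.042. Libraries 15 and 16 carry the same mouse number, and the labels tie neither other pair to 1 animal, so whether all 3 are pairs was not settled. The replicate block gave 4340 genes called against 7137 for all libraries, and 5360 for the same 6 libraries without it. Members called higher were 2 with the block (Mcl1 and Pmaip1) and 2 without it (Bcl2 and Pmaip1), and 3 members were lower in both. With the block the calls of Bcl2 (adjusted p = 0.06), Bcl2l11 (0.052), Bad (0.097), Bnip3l (0.07) and Fadd (0.063) were lost. Bak1 changed sign with library size only (0.36), with no filter on low counts (0.0089), and without Sca-1+ 13 (0.23), Sca-1+ 19 (0.12) or Sca-1- 8 (0.021), within -0.30 to 0.23 over the removals of 1 library. Depth limits Bak1, Bcl2l2 and Bmf, whose lowest libraries held 13, 2 and 0 counts. The cause of the other changes was not tested.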
